A study of Mus musculus with 9 samples.

Results

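The genes described here are 10 transcripts that ERK signalling induces and that either dampen it or carry it on. They are the MAP kinase phosphatase genes Dusp4, Dusp5 and Dusp6, the Sprouty genes Spry1, Spry2 and Spry4, the Spred genes Spred1 and Spred2, and the ETS transcription factor genes Etv4 and Etv5. They were chosen by name, as a transcript readout beside the immunoblots of ERK signalling in the same model, at a time when earlier results of these data were known. The study reported that honokiol lowered ERK signalling in those immunoblots, which measure protein and its phosphorylation and not RNA. Each gene has 1 probe set among 19505 genes with a symbol, so no choice between probe sets was needed, and all 10 were measured.

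ERK is the last kinase of a cascade that runs from receptor tyrosine kinases through Ras, Raf and MEK. Once phosphorylated, it activates ETS transcription factors and relieves repression by Capicua, and the genes induced in this way include inhibitors that act back on the cascade. The level of these feedback transcripts is widely used as a readout of recent ERK activity. In the liver, the receptors EGFR and MET signal through this cascade in hepatocytes during injury and regeneration.

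RNA was measured on Clariom S mouse arrays, from non-tumor liver by the study's account, in 9 liver samples of male mice, with 3 arrays for WT, 3 for MUP and 3 for HNK, all on a C57BL/6 background and 40 weeks old. WT were wild-type mice with control treatment. MUP were MUP-uPA transgenic mice with control treatment, which express urokinase-type plasminogen activator in hepatocytes from a promoter of a major urinary protein gene. HNK were MUP-uPA transgenic mice given honokiol, a compound from magnolia, at 10 mg/kg 3 times per week by intraperitoneal injection from week 32 to week 40. By the study's methods all mice received a high-fat diet, from 6 weeks of age, so that no group is a lean liver.

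Values are log2 of the deposited normalized intensities, and each comparison comes from a single limma model of all 9 arrays with p-values adjusted over 22206 probe sets. The median of 5222 negative control rows lay between 4.91 and 5.10 on the log2 scale, and differences near that level are compressed. Hepatocyte markers were at a median of 18.75 to 19.08 on every array. Of 8 measured, 1 rose in MUP and in HNK against WT, Cps1, with log2 fold changes of 1.24 and 0.94. The medians over the list were 0.02 and 0.04. The call in MUP was lost without WT 1 (adjusted p = 0.0559 from limma) and with the t-test of the study's methods (0.139). That in HNK was lost under 12 of 18 alternative settings. Signal of 20 skeletal muscle markers was high on MUP 2 and HNK 3, with medians of 11.78 and 11.37 against 4.14 to 4.62 on the other 7 arrays, so results are also given without these arrays. All 11 measured macrophage markers and 11 of 12 sinusoidal endothelial markers had lower means in MUP than in WT. In each list 1 marker fell, Adgre1 and Fcgr2b, both calls lost without any 1 WT array (adjusted p from 0.0536 to 0.131). Both were also lost without MUP 2 (0.0813 and 0.0695) and without both MUP 2 and HNK 3 (0.0808 and 0.0662). The t-test of the study's methods lost both as well (0.239 and 0.262). Adgre1 was further lost without MUP 3 (0.0863) and Fcgr2b without MUP 1 (0.0505). In HNK against WT 2 of 11 macrophage markers (Adgre1 and Vsig4) and 5 of 12 endothelial markers fell, with median log2 fold changes of -1.56 and -1.33 over the lists. The 2 macrophage calls were also lost without any 1 WT array (0.0837 to 0.184) and without some other arrays, among them HNK 3 (0.0805 and 0.0616). Of the endothelial calls, those of Oit3, Gpr182 and Cdh5 were lost without any 1 WT array (0.0671 to 0.15) and without some other arrays. That of Clec4g was lost without WT 1, WT 2, HNK 2 or HNK 3 (0.0547 to 0.101), and Fcgr2b was called without any 1 array. With the t-test of the study's methods all these calls in HNK against WT were lost (adjusted p from 0.187 to 0.325). Since this is bulk tissue, fewer cells of a type and less RNA per cell cannot be told apart.

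Promoters of Dusp5, Dusp6 and Etv5 are shown because Dusp6 and Etv5 are the members with the lowest levels relative to WT, while Dusp5, another ERK-selective phosphatase gene, kept nearly the same mean in all groups. An entry was found in the RefSeq table for 7 of the 10 genes (GRCm38.p6), from 250 bases before to 50 bases after the annotated start. Both strands were searched for 6 motifs. These were the Capicua sites TGAATGAA and TGAATGGA, the ETS site CCGGAA, the AP-1 site TGANTCA, the cAMP response element TGACGTCA and the CArG box. The CArG box binds serum response factor. Capitals mark matches to these 6 motifs, and the windows shown for Dusp6 and Etv5 hold none of them. A further window of Etv5 (chr16:22438319-22438618, minus strand) is not shown and also held none of the 6. Other forms of the Capicua and ETS sites were not searched, so lower case does not show that a window lacks them.
Dusp5 (chr19:53528895-53529194, plus strand): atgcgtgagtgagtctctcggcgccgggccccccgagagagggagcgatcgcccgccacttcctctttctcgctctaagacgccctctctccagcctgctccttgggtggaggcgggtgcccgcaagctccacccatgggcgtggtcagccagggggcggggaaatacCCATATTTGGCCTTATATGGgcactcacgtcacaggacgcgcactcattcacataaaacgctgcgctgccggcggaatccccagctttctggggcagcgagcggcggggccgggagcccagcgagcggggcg
Dusp6 (chr10:99262981-99263280, plus strand): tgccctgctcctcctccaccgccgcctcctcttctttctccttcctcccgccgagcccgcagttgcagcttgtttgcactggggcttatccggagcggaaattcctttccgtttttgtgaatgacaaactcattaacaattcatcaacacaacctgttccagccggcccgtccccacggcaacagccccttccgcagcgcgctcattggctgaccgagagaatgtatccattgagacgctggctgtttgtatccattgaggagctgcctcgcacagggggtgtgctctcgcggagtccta
Etv5 (chr16:22439521-22439820, minus strand): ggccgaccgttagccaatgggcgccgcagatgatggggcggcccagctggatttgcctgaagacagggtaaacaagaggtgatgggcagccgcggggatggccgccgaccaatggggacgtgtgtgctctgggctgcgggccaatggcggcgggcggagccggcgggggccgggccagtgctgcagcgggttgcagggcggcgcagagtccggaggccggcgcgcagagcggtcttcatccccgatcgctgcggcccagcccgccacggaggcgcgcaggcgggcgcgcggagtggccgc
The window of Dusp5 holds 2 adjoining CArG boxes, from 82 to 73 and from 72 to 63 bases before the start, and 1.63 percent of 32851 promoter windows of this length hold at least 1. The only other match was an ETS site, CCGGAA, in the window of Spry2, a motif found in 14.9 percent of all windows. The Capicua sites TGAATGAA and TGAATGGA, each found in 1.3 and 1.21 percent of all windows, were in none of the 8 windows of these genes. These matches describe letters in a short window and do not show that a factor binds there.

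None of the 10 genes was called in any comparison at an adjusted p under 0.05 by limma. In MUP against WT 0 of 10 passed, where 3.58 percent of all probe sets were called (1.44 percent higher and 2.13 percent lower), and 2 of 10, Dusp6 and Etv4, had an unadjusted p under 0.05 against 17.3 percent of all. In HNK against MUP 0 of 10 passed against 0.00450 percent, and Dusp4 and Spred2, 2 of 10, had an unadjusted p under 0.05 against 4.36 percent. Of the genes in these counts, Etv4 and Dusp4 lay below the median of the negative controls on all 9 arrays. In HNK against WT 0 of 10 passed against 2.29 percent (0.964 percent higher and 1.33 percent lower), and for 2 of 10, Dusp6 and Etv5, the unadjusted p was under 0.05 against 14.1 percent. The methods' t-test, at the threshold the study uses and without adjustment, gave 0, 1 and 1 of 10 in the same order, against 14.6, 4.03 and 12.6 percent of all probe sets, and 0 of 10 in each after Benjamini-Hochberg adjustment. The 3 arrays of a group did not overlap with those of the other group for 1 of 10 genes in MUP against WT (23.4 percent of all probe sets, 12.5 percent with the first group lower), 1 in HNK against MUP (8.59 percent, of which 4.11 higher and 4.48 lower) and 2 in HNK against WT (20.5 percent, of which 9.37 higher and 11.1 lower). The median log2 fold change of the 8 genes with a measurable level was -0.11, -0.08 and -0.07 in these comparisons, and that of all probe sets was 0.00, -0.01 and -0.01.

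**Figure D1:**
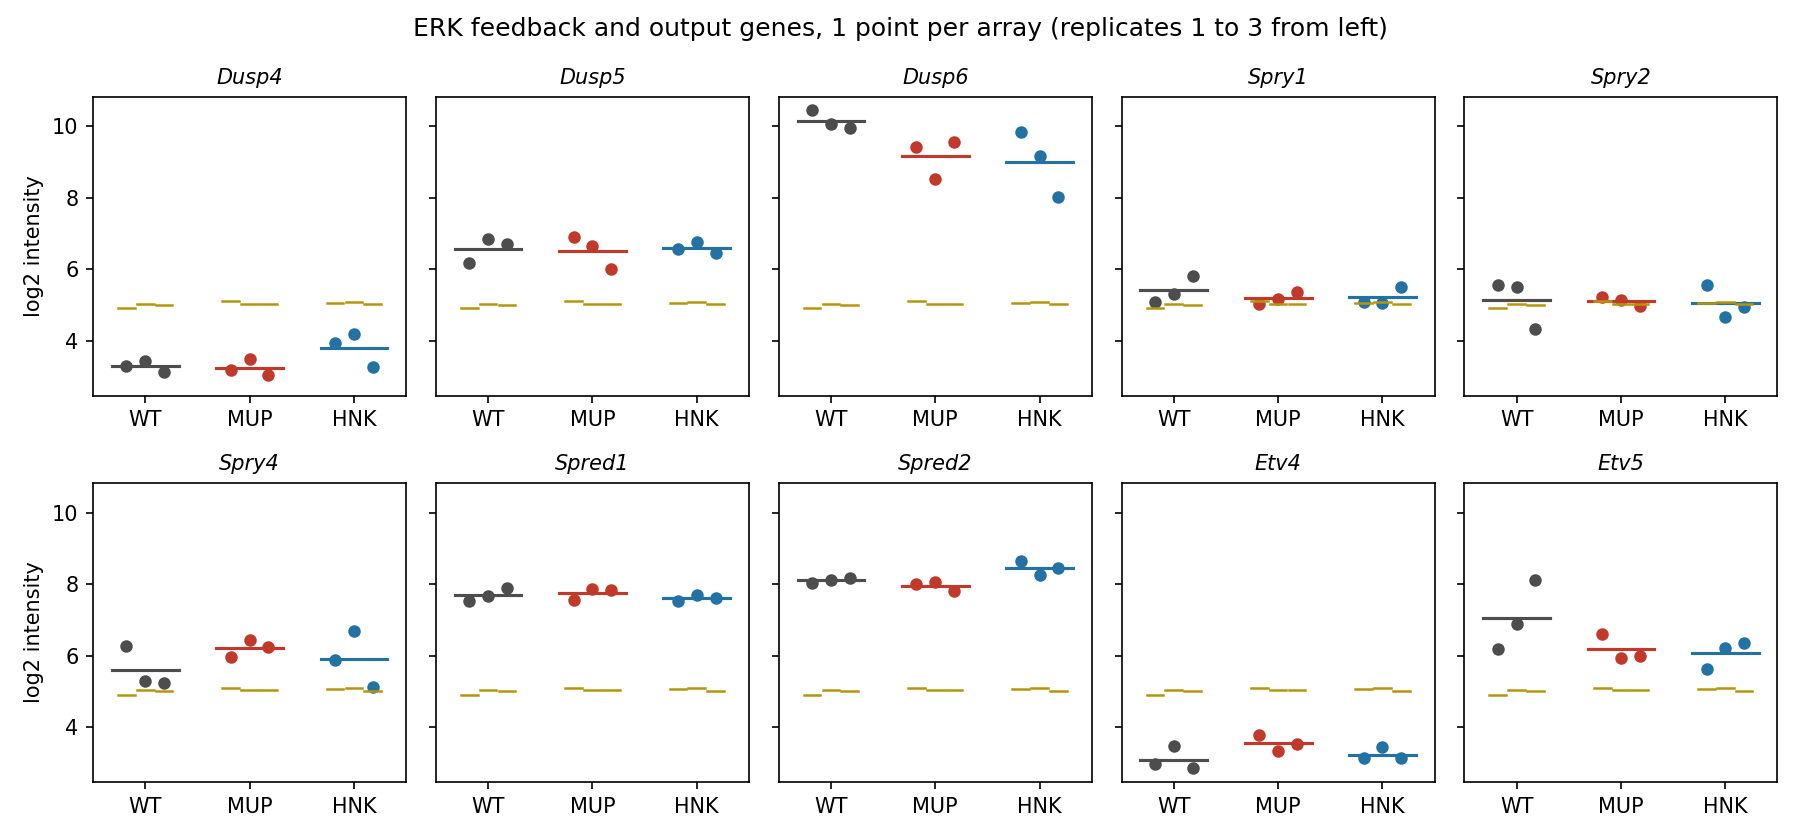
Log2 intensity of each of the 10 genes on the 9 arrays. Points are arrays 1 to 3 of each group from left to right, long lines are group means and short yellow lines are the median of the negative controls on each array. Dusp4 and Etv4 lie below the controls on all 9 arrays, and the WT points of Dusp6 lie above every MUP and HNK point.

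Against WT, Dusp6 differed most among these genes, with a lower mean in both transgenic groups. It encodes a cytoplasmic phosphatase that acts selectively on ERK. Its log2 intensity was 10.46, 10.07 and 9.94 in WT, 9.43, 8.53 and 9.57 in MUP, and 9.85, 9.17 and 8.03 in HNK. Every WT array was above every array of the other groups, and MUP and HNK overlapped throughout. Group means of Dusp6 with the SD of 3 arrays were 10.16 ± 0.27 for WT, 9.18 ± 0.57 for MUP and 9.02 ± 0.92 for HNK. For MUP against WT the log2 fold change was -0.98, with a 95% interval of -1.88 to -0.08 (SE 0.41, limma adjusted p = 0.245). HNK against WT had -1.14 (SE 0.41, 95% interval -2.04 to -0.24, adjusted p = 0.207 from limma). An exact two-sided permutation test gave p = 0.1 for each, the smallest p that 3 arrays against 3 allow. Neither difference passed the test over all probe sets, and both comparisons use the same WT arrays.

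HNK against MUP showed no difference of Dusp6 beyond the spread of the arrays. The log2 fold change was -0.16 (SE 0.41, 95% interval -1.06 to 0.74, adjusted p = 0.998 from limma). The interval includes a fall of 2-fold, so these arrays do not show that the level was unaltered by honokiol. The lowest array of each transgenic group was the one with skeletal muscle signal, MUP 2 and HNK 3. Without both, the log2 fold change was -0.66 for MUP against WT, -0.65 for HNK against WT and 0.0056 for HNK against MUP, with adjusted p of 0.239, 0.297 and 0.999 from limma. The medians of the 11 macrophage markers were 10.90 to 13.11 in WT, 9.59 to 10.89 in MUP and 8.57 to 11.43 in HNK. Those of the 12 sinusoidal endothelial markers were 9.81 to 10.09 in WT, 8.21 to 9.90 in MUP and 8.0 to 8.92 in HNK. The summed level of the macrophage markers was 15.24 to 16.75 on the log2 scale in WT, 13.77 to 14.84 in MUP and 13.01 to 14.93 in HNK. That of the endothelial markers was 14.44 to 14.85, 12.96 to 13.97 and 12.65 to 13.23. The summed level of 11 stellate cell markers was 16.23 to 16.56 in WT, 15.20 to 15.81 in MUP and 14.85 to 16.13 in HNK, with 9 of 11 lower means and 0 calls in MUP against WT. Their medians overlapped, at 8.36 to 9.09 in WT, 7.21 to 8.92 in MUP and 7.27 to 9.26 in HNK. MUP 2 and HNK 3, the arrays with muscle signal, had the highest stellate median of their groups. The part of these cell types in the level of Dusp6 was not tested.

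**Figure D2:**
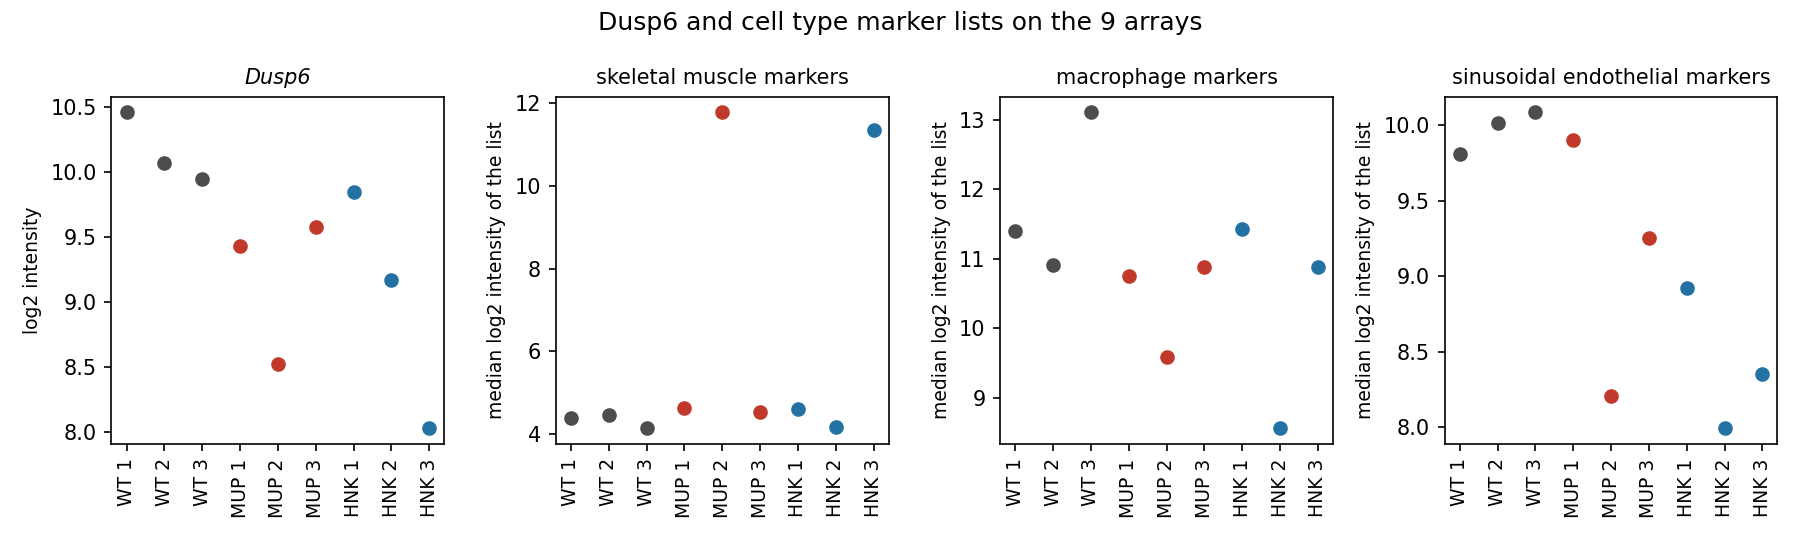
Log2 intensity of Dusp6 and the median log2 intensity of 3 marker lists on the 9 arrays (grey WT, red MUP, blue HNK, 1 point per array). Dusp6 is lowest on MUP 2 (8.53) and HNK 3 (8.03), which carry the muscle signal, and the endothelial median is lower on every HNK array than on every WT array.

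Neither of the other phosphatase genes passed the test in any comparison. Dusp5 encodes a nuclear phosphatase that also acts selectively on ERK and holds it in the nucleus. Its log2 intensity was 6.17, 6.86 and 6.72 in WT, 6.90, 6.64 and 6.02 in MUP, and 6.56, 6.75 and 6.45 in HNK. All 3 groups overlapped, and the group means lay between 6.52 and 6.59. The 95% intervals of its log2 fold change were -0.67 to 0.54 for MUP against WT, -0.53 to 0.68 for HNK against MUP and -0.60 to 0.61 for HNK against WT. Each of these intervals excludes a 2-fold change in either direction on this scale. Dusp4, which encodes a nuclear phosphatase of ERK and other MAP kinases, lay below the median of the negative controls on all 9 arrays, at 3.03 to 4.18. Between 5.86 and 27.4 percent of the negative control rows of an array were lower, so no fold is given for Dusp4.

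The Sprouty genes were close to the level of the negative controls. Their products are induced by growth factors and restrain signalling from receptor tyrosine kinases to Ras and ERK. Spry1 had log2 intensities of 5.10, 5.32 and 5.81 in WT, 5.02, 5.18 and 5.36 in MUP, and 5.10, 5.05 and 5.51 in HNK. Spry2 had 5.57, 5.50 and 4.33 in WT, 5.23, 5.15 and 4.98 in MUP, and 5.57, 4.68 and 4.96 in HNK. Spry1 lay at or below the controls' median on 2 of 9 arrays and Spry2 on 4, and the groups overlapped for both genes in every comparison. For MUP against WT their log2 fold changes were -0.22 (95% interval -0.76 to 0.32) and -0.01 (95% interval -0.75 to 0.73), and the latter turned to 0.0070 with median centring. For HNK against MUP they were 0.03 (95% interval -0.51 to 0.57) and -0.05 (95% interval -0.79 to 0.69).

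The mean of Spry4 was highest in MUP, but the test was not passed. Its log2 intensity was 6.26, 5.27 and 5.23 in WT, 5.96, 6.44 and 6.24 in MUP, and 5.87, 6.69 and 5.12 in HNK. WT 1 lay with the MUP arrays, while WT 2, WT 3 and HNK 3 were the lowest, so each pair of groups overlapped. For MUP against WT the log2 fold change was 0.63 (SE 0.39, 95% interval -0.23 to 1.48, limma adjusted p = 0.46). For HNK against MUP it was -0.32 (SE 0.39, 95% interval -1.17 to 0.53, adjusted p = 0.998 from limma) and turned to 0.18 without both MUP 2 and HNK 3. Spry4 and Dusp6 thus had means on opposite sides of WT in MUP, and neither difference passed the test.

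Spred2 had its highest values in HNK, and for Spred1 no difference exceeded the spread of the arrays. Both encode membrane-bound inhibitors that bring neurofibromin to Ras. Spred2 had log2 intensities of 8.02, 8.13 and 8.17 in WT, 8.0, 8.07 and 7.81 in MUP, and 8.63, 8.25 and 8.45 in HNK. All 3 HNK arrays were above all arrays of the other groups. For HNK against MUP the log2 fold change was 0.48 (SE 0.20, 95% interval 0.05 to 0.92, adjusted p = 0.998 from limma), and an exact two-sided permutation test gave p = 0.1. HNK against WT had 0.34 (95% interval -0.10 to 0.77, adjusted p = 0.505 from limma). Neither passed the test, and the intervals exclude a rise of 2-fold. Without both MUP 2 and HNK 3 the log2 fold changes of Spred2 were 0.54 for HNK against MUP and 0.34 for HNK against WT.

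Spred1 had log2 intensities of 7.53, 7.67 and 7.89 in WT, 7.57, 7.87 and 7.84 in MUP, and 7.53, 7.71 and 7.62 in HNK. The groups overlapped in every comparison. Its log2 fold change was 0.06 (95% interval -0.38 to 0.50) for MUP against WT and -0.14 (95% interval -0.58 to 0.31) for HNK against MUP. A 2-fold change lies outside all 3 intervals of Spred1.

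Of the ETS factor genes Etv5 had a lower mean in MUP and HNK than in WT, and Etv4 was not measurable. Etv4 and Etv5 belong to the PEA3 group of activators, which ERK switches on and which growth factors induce. Etv5 had log2 intensities of 6.19, 6.87 and 8.11 in WT, 6.60, 5.94 and 5.97 in MUP, and 5.62, 6.22 and 6.36 in HNK. WT 3 was the highest array by far, and WT 1 lay among the MUP and HNK arrays. For MUP against WT the log2 fold change was -0.88 (SE 0.42, 95% interval -1.80 to 0.03, adjusted p = 0.309 from limma), and -0.36 without WT 3. HNK against WT had -0.99 (SE 0.42, 95% interval -1.91 to -0.08, adjusted p = 0.305 from limma), and -0.46 without WT 3. HNK against MUP had -0.11 (95% interval -1.02 to 0.81, adjusted p = 0.998 from limma). Etv4 lay below the median of the negative controls on all 9 arrays, at 2.84 to 3.77, with 4.19 to 18.5 percent of the control rows lower, and no fold is given for it.

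**Figure D3:**
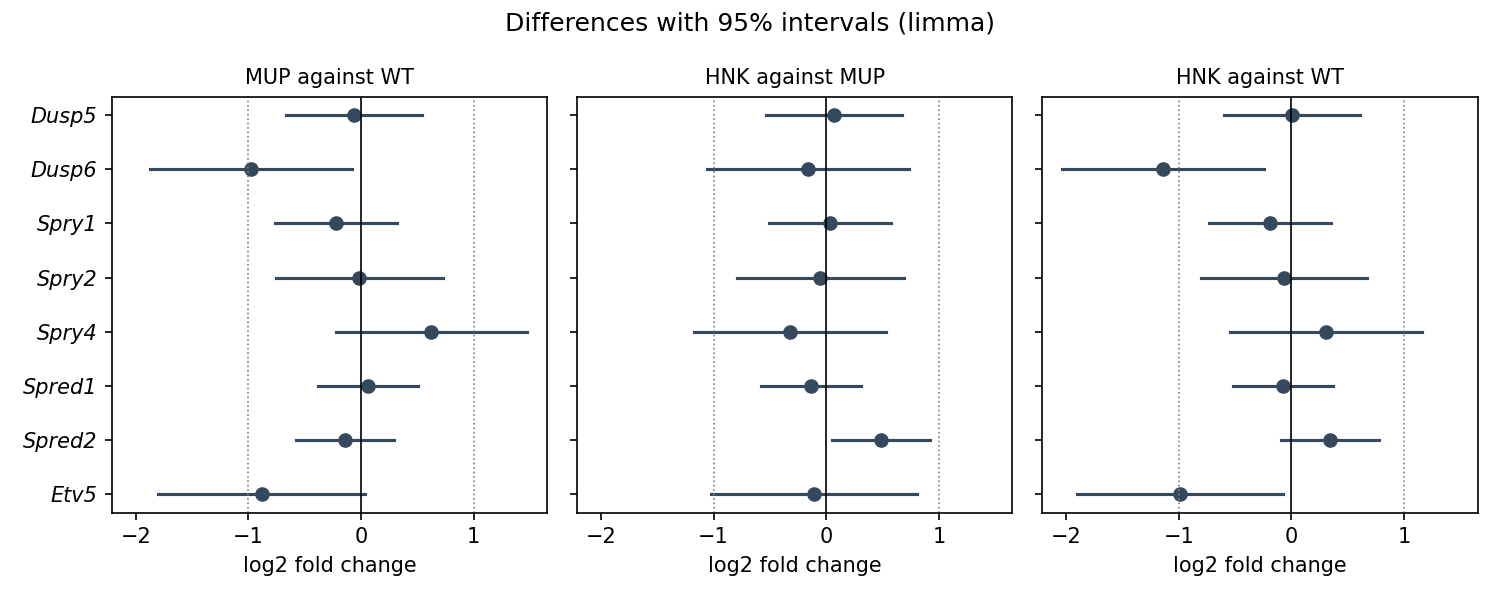
Log2 fold changes of the 8 genes with a measurable level (points) with 95% intervals from limma (lines), for the 3 comparisons. Dotted lines mark a 2-fold change. The intervals of Dusp5, Spry1, Spry2, Spred1 and Spred2 lie inside the dotted lines in every comparison, and those of Dusp6, Spry4 and Etv5 reach beyond them.

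In each comparison 5 of the 8 measurable genes had a 95% interval that excludes a 2-fold change, and the same genes, Dusp5, Spry1, Spry2, Spred1 and Spred2, made up the 5 each time. For Spry1 and Spry2 these limits apply to values near the negative controls, where a change in RNA gives a smaller change in intensity. Dusp5 lay 0.98 to 1.82 above the controls' median on the log2 scale, so its limits also refer to intensity and not to RNA. The members differed in spread: the residual SD of the log2 values was 0.24 for Spred2 and 0.25 for Spred1, below the median of all probe sets of 0.30, and 0.50 for Dusp6 and 0.51 for Etv5. For Dusp6, Spry4 and Etv5, changes of 2-fold in HNK against MUP were therefore not resolved by 3 arrays per group.

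Upstream of these genes, 4 of 16 receptor genes rose in MUP against WT and none fell, and 0 of 15 genes of the cascade from adaptors to ERK substrates passed the test. The lists of pathway genes were written by name, also with earlier results known. Egfr had log2 intensities of 9.02, 8.53 and 9.42 in WT, 10.73, 12.08 and 12.87 in MUP, and 9.22, 11.37 and 10.75 in HNK. MUP and WT did not overlap, and HNK had a mean between theirs and overlapped both. MUP against WT gave 2.90 on the log2 scale (limma adjusted p = 0.0169), next to -0.98 for Dusp6 and 0.63 for Spry4. For HNK against MUP it was -1.45 (adjusted p = 0.998 from limma), next to -0.16 for Dusp6 and -0.32 for Spry4. Met, the receptor of hepatocyte growth factor, had a log2 fold change of 1.17 in MUP against WT (adjusted p = 0.0244 from limma), the insulin receptor gene Insr had 0.89 (adjusted p = 0.0289) and Klb, which encodes the FGF co-receptor beta-Klotho, had 0.93 (adjusted p = 0.0485). The calls of Egfr, Met and Insr were lost without any 1 of the WT arrays or without MUP 3, and those of Met and Insr also without MUP 1 (adjusted p from 0.0503 to 0.128). That of Klb was lost without any 1 WT or MUP array or HNK 1 (0.0629 to 0.178), without both MUP 2 and HNK 3 (0.108), with median centring (0.0569) and without the variance trend (0.0519). With the methods' t-test all 4 receptor calls were lost (0.146 to 0.225).

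In the cascade the smallest p-values in MUP against WT were those of Ptpn11, which encodes the phosphatase SHP2, and Sos1, which encodes a Ras exchange factor. Their log2 fold changes were 0.85 and 0.70 (adjusted p = 0.0705 and 0.0821 from limma). In HNK against MUP 0 of 16 receptor genes and 0 of 15 cascade genes passed, and in HNK against WT Insr was the only one (log2 fold change 0.86, adjusted p = 0.0411). That call was lost without any 1 WT or HNK array (0.0892 to 0.173), without both MUP 2 and HNK 3 (0.0544), with the replicate block (0.0561), with median centring (0.0501), without the variance trend (0.064) and with the methods' t-test (0.188).

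Among other inhibitors and output genes, those that passed the test were all lower than in WT. Of 7 other MAP kinase phosphatase genes, in MUP against WT Dusp1 fell by 2.07 on the log2 scale (limma, SE 0.36, adjusted p = 0.0102), and 6 did not pass. Dusp1 encodes a phosphatase of p38, JNK and ERK, and glucocorticoids and stress also induce it. Its log2 intensity was 13.12, 13.11 and 12.10 in WT, 10.73, 11.10 and 10.30 in MUP, and 11.53, 10.61 and 10.22 in HNK. All WT arrays were thus above all others, and HNK against MUP was 0.08 (adjusted p = 0.998). Of 16 immediate early genes, Jun and Klf6 fell in MUP against WT, with -2.18 and -2.08 (adjusted p = 0.000947 and 0.0102 from limma), and 14 did not pass. Without WT 1 the call of Dusp1 was lost, as was that of Klf6 without WT 3 (adjusted p = 0.0583 for each). These calls were also lost with the methods' t-test (0.089 for Jun, 0.123 for Klf6 and 0.182 for Dusp1). In HNK against WT the same 3 genes fell, with log2 fold changes of -1.99 for Dusp1, -2.11 for Jun and -1.64 for Klf6 (adjusted p = 0.0177, 0.00126 and 0.0402 from limma). Leaving out 1 array ended the call of Dusp1 for WT 1, WT 2, HNK 2 and HNK 3 (0.0527 to 0.0891). It ended that of Klf6 for 7 of the 9 arrays (0.0524 to 0.178), and Jun was called without any 1 array. With the methods' t-test all 3 calls were lost (0.163 for Jun, 0.282 for Dusp1 and 0.351 for Klf6). That of Klf6 was also lost with limma on the arrays of these 2 groups alone (0.0661). Of 14 other inhibitors of the pathway, 0 passed in any comparison. The smallest p-values were those of Rasa2, a Ras GTPase-activating protein gene, and Dok2, an adaptor gene, with 0.89 and -0.87 in MUP against WT (adjusted p = 0.164 and 0.176 from limma). They include Errfi1, which encodes the EGFR inhibitor MIG6, with a log2 fold change of 0.69 in MUP against WT (SE 0.50, adjusted p = 0.534 from limma) and -0.17 in HNK against MUP (adjusted p = 0.998).

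Of 8 other measured genes used as readouts of ERK activity, 0 passed in any comparison. The 8 include Phlda1, which encodes a pleckstrin homology domain protein, at 6.27, 7.01 and 6.42 in WT, 7.37, 8.08 and 8.40 in MUP, and 6.94, 8.14 and 10.50 in HNK. Its MUP arrays were all above its WT arrays, and HNK 3, one of the arrays with muscle signal, was the highest. The log2 fold change of Phlda1 was 1.38 for MUP against WT (SE 0.67, adjusted p = 0.321 from limma), opposite in sign to that of Dusp6 and Etv5. Epha2, which encodes an ephrin receptor, had -0.91 (SE 0.46, adjusted p = 0.342). Ccnd1 and Hmga1 were not analysed here. Of 12 genes of ETS factors and the Capicua repressor complex, 0 passed in MUP against WT and in HNK against MUP. The smallest p-values in MUP against WT were those of the ETS factor genes Ets2 (-1.26, adjusted p = 0.0562 from limma) and Elk4 (0.68, adjusted p = 0.101). In HNK against WT Ets2 fell by 1.55 on the log2 scale (limma, SE 0.32, adjusted p = 0.0306). The call was lost without any 1 of WT 2, WT 3, HNK 2 and HNK 3 (0.077 to 0.142). It was also lost without both MUP 2 and HNK 3 (0.0688) and with the methods' t-test (0.3). Cic, which encodes Capicua, had log2 fold changes of -0.27 in MUP against WT and 0.05 in HNK against MUP (adjusted p = 0.585 and 0.998 from limma).

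HNK against MUP gave no call in any of these 7 lists. Of the 16 immediate early genes, 8 had a higher and 8 a lower mean in HNK than in MUP. Their median log2 fold change was 0.01. The smallest unadjusted p among them was that of Egr1, a direct transcriptional target of ERK through serum response factor and Elk1. Its log2 intensity was 7.10, 6.03 and 6.33 in MUP and 6.05, 5.10 and 5.21 in HNK, against 6.64, 6.79 and 6.29 in WT. HNK 1 lay just above the lowest MUP array, and HNK 2 and HNK 3 were below all others. The log2 fold change of Egr1 was -1.04 (SE 0.33, unadjusted p = 0.00887, adjusted p = 0.998 from limma). In this comparison 4.36 percent of all probe sets had an unadjusted p under 0.05. Dusp5 had 0.07 in this comparison, and the difference between the 2 genes was not tested. MUP against WT and HNK against MUP share the MUP arrays, so their values are given side by side and no correlation between them is reported.

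**Figure D4:**
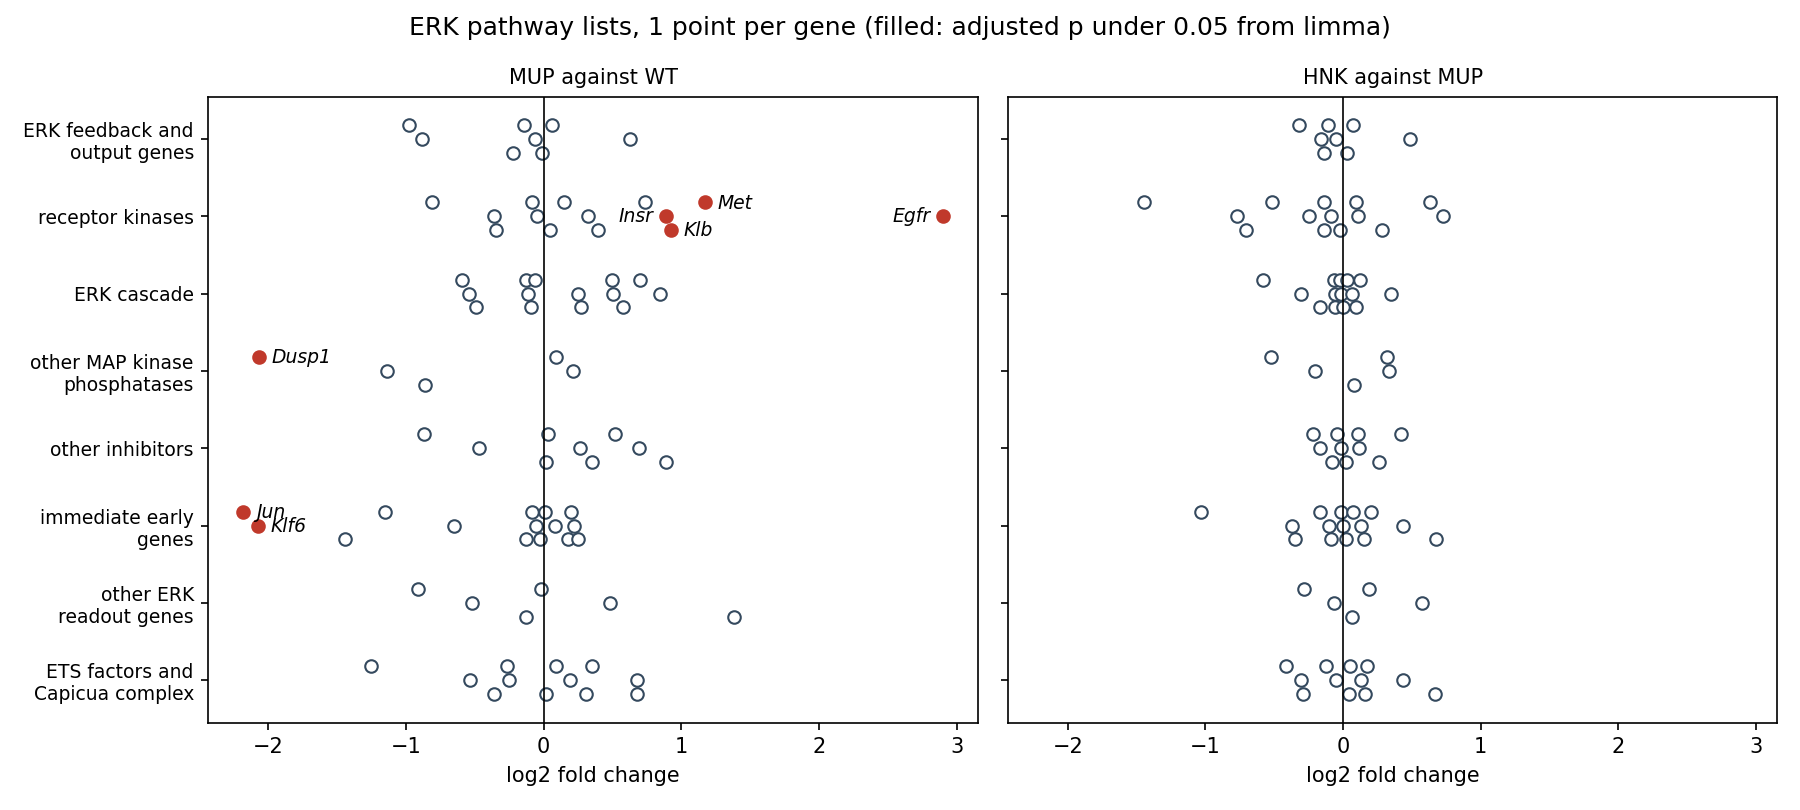
Log2 fold changes of the ERK feedback and output genes and of 7 lists of pathway genes, 1 point per gene, for MUP against WT and HNK against MUP. Filled red points passed an adjusted p under 0.05 from limma and are named, and genes below the negative controls on all arrays of both groups are left out. Called genes are receptors to the right (Egfr at 2.90) and Dusp1, Jun and Klf6 to the left near -2, and no point is filled in HNK against MUP.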

How the data were processed

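Biotin-labelled RNA of 9 liver samples was hybridised to Clariom S arrays, and each array is a labelled sample of its own. The deposited values are intensities on a linear scale, normalized by the authors. RMA and the Affymetrix Expression Console appear, without versions, among the submitters' processing notes, and a Filgen analysis tool appears in the study's methods. For build and scan batches, these sources name none. RMA shrinks differences of dim probe sets. Log2 was taken, 6640 control rows of 28846 were left out, and 22206 probe sets were fitted in 1 model without covariates (lmFit, then eBayes with its trend option, limma 3.58.1 on R 4.3.3). P-values are two-sided and adjusted by Benjamini-Hochberg. No fold is given where a gene did not exceed the negative controls' median on any array of both groups. The labels do not say that samples are separate animals, so p-values measure the spread between these samples, and the number of arrays limits the precision. The fit was tested on simulated data.

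The members, lists and rules were chosen with earlier results of these data known. Named are all 10 members, Egfr and Errfi1, the called genes of each pathway list (up to 4), and up to 2 with the smallest p where none was called. Called cell type markers are named too. Egr1 and Cic were named after their values were seen. Markers of stellate cells, cholangiocytes, lymphocytes and neutrophils were also listed. In MUP against WT 0 of 11, 0 of 6, 0 of 9 and 0 of 7 passed, as in HNK against MUP. In HNK against WT 1 cholangiocyte marker (Epcam) and 1 lymphocyte marker (Cd4) rose, and 0 of 11 stellate and 0 of 7 neutrophil markers passed. Epcam is among the dimmest 40 percent of probe sets, and its call was lost without WT 3 (0.0785). That of Cd4 was lost without WT 1, WT 3, HNK 3 or both MUP 2 and HNK 3 (0.0616 to 0.0957). With the methods' t-test both were lost (0.188 and 0.238). Sequences are from RefSeq. Replicate numbers did not pair the arrays.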

Additional observations from a re-analysis of the deposited data

How the results depend on the processing

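The count of called members was 0 in each comparison under all 18 alternatives that could be run, of 10 members under 17 and of 8 without the dimmest 40 percent of probe sets, which drops Dusp4 and Etv4, with a smallest adjusted p of 0.0814 (Dusp6, HNK against WT, without HNK 1). These refitted only the arrays being compared, added the replicate block or used array weights (statmod 1.5.0), others were leaving out the dimmest 40 percent of probe sets, cyclic loess, median centring, no variance trend, the methods' t-test, leaving out each array, and leaving out both MUP 2 and HNK 3. The median over probe sets of a gene was not run, since each member has 1. Of 24 differences, 10 kept their sign under every alternative, among them Dusp6 and Etv5 against WT and all 3 of Spred2. Leaving out 1 array gave -1.18 to -0.66 and -1.56 to -0.65 for Dusp6 in MUP and HNK against WT.

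The other 14 differences turned sign under at least 1 alternative, and none of them was called. Leaving out 1 array in turn gave, for MUP against WT, -0.27 to 0.19 for Dusp5, -0.41 to 0.20 for Spry2 and -0.021 to 0.16 for Spred1. For HNK against MUP it gave -0.18 to 0.26 for Dusp5, -0.58 to 0.33 for Dusp6, -0.11 to 0.12 for Spry1, -0.30 to 0.14 for Spry2, -0.72 to 0.068 for Spry4 and -0.25 to 0.11 for Etv5. For HNK against WT it gave -0.20 to 0.14 for Dusp5, -0.35 to 0.0086 for Spry1, -0.47 to 0.15 for Spry2, -0.10 to 0.69 for Spry4 and -0.16 to 0.021 for Spred1. With array weights Spry2 had 0.10 in MUP against WT, 0.048 in HNK against MUP and 0.15 in HNK against WT, and Dusp5 had -0.069 in HNK against WT. Median centring gave 0.0070 for Spry2 in MUP against WT. Without both MUP 2 and HNK 3, HNK against MUP gave 0.0056 for Dusp6, -0.12 for Spry1, 0.018 for Spry2 and 0.18 for Spry4. The cause was not tested.

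With the replicate block 867, 1 and 586 probe sets were called over the whole table, against 794, 1 and 509 without it, and 0 of 10 members in each comparison. Deviations of same-numbered arrays correlated between -0.29 and 0.40, and 4 of 9 arrays correlated best with their own number, so the numbers were not taken to pair the arrays. The calls in MUP against WT numbered 265 without WT 1, 395 without WT 2, 271 without WT 3, 482 without MUP 1, 411 without MUP 3, and 0 with the methods' t-test. Those in HNK against WT numbered 139, 210 and 114 without WT 1, WT 2 and WT 3, 305 without HNK 2, 241 without HNK 3, and 0 with the methods' t-test.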
